A study of Rattus norvegicus with 2 samples.

Results

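The genes described are 10 of the natriuretic peptide and endothelin systems, namely Nppa, Nppc, Npr1, Npr2, Npr3, Edn1, Edn3, Ednra, Ednrb and Ece1. They were taken by name, as every non-control spot whose gene name in the scanner files was that of a listed gene. All 10 were on the arrays, out of 26328 genes and other targets, on 11 probes and 47 spots. RNA came from the whole hypothalamus of rats of the Wistar Kyoto (WKY) strain, a normotensive strain, aged 9 weeks, with no treatment named, all fed freely and killed under ether by decapitation. The male group was 1 pool of RNA from 5 males and the female group 1 pool from 5 females, with 100 ng from each rat, and no allele or agent separated the groups. From each pool 150 ng was amplified, labelled with the dye Cy3 and hybridised to 1 Agilent array, both on the same slide and read in the same scan. The series asks how gene expression differs between the sexes in brain centres of cardiovascular control. With 1 array per sex there is no replicate check and no test, and the spread between rats is hidden by the pooling.

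Natriuretic peptides are small ring-shaped hormones that lower blood pressure and promote salt loss, and the brain makes its own. Nppa encodes atrial natriuretic peptide, which acts on the receptor guanylyl cyclase of Npr1, and Nppc encodes C-type natriuretic peptide, which acts on that of Npr2, and both receptors make the messenger cyclic GMP. Npr3 encodes the receptor that takes these peptides up and clears them. Endothelins are vasoconstrictor peptides cut from longer precursors by converting enzymes such as that of Ece1. They signal through G protein-coupled receptors, of which that of Ednra prefers endothelin 1 and that of Ednrb binds all endothelins alike, the latter being well known from astrocytes and endothelial cells.

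Sequences are shown for the probes on which the endothelin results turn, and for Nppa as a gene with repeated spots, each 60 bases long as the deposited files give them. Among the 55 pairs of member probes, compared without gaps over at least 30 bases, a probe of Ednra and the probe of Ednrb were the most alike, with 43 identical bases in an overlap of 49, or 87.8%. The next pair had 26 of 53. Capitals mark the bases identical between both probes, the longest such run being 11 bases, and lower case is used for the rest.
Ednra, start 1364: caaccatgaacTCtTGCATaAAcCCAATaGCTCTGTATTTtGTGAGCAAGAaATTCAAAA
Ednrb: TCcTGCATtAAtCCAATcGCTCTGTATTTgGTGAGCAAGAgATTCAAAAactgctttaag
Edn3: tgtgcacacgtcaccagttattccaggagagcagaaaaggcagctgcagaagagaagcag
Nppa: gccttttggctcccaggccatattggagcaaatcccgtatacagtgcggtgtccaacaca
In build rn4, the one named in the file headers, the Ednra probe lies on the plus strand of chromosome 19 at 32102982 to 32103041, and the Ednrb probe on the minus strand of chromosome 15 at 87896574 to 87896633. The Edn3 probe is placed on the plus strand of chromosome 3 at 166510899 to 166511843. That is 945 bases of genome for 60 bases of probe, so its sequence is split there. The Nppa probe lies on the plus strand of chromosome 5 at 165074636 to 165074695. Exon and UTR annotation in this build was not used here.

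Values are given as the processed intensity of a spot and as its level, which is log2 of that intensity minus the 75th percentile of the same quantity over the array. Levels of different probes are not compared with each other. The summed level of a list of marker genes is log2 of the sum of their levels put back on a linear scale. It is not the sum of the log2 levels. Such a value adds signals across probes and is weighted towards the brightest genes, so it is compared between the pools only. Intensities fall from the male to the female array for many spots because the 75th percentile was 3769 on the male and 2943 on the female array, and the level removes this. Where values are given in pairs, the male one comes first. Every difference is female minus male, in log2. Its error is the SD over spots for a probe spotted 10 times, and for a probe on 1 spot the pooled SD of repeated spots of like level, called the technical SD. Either one covers scatter within this slide only, and no error between rats, labellings or hybridisations. In bulk tissue, fewer cells of a type and less RNA per cell cannot be told apart.

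On both arrays 0 spots were saturated, and 84.9% and 84.2% of non-control spots were well above background of the male and of the female array. All 8 listed markers of hypothalamic neurons were measured in both pools, with summed levels of 7.41 and 7.43. Certain slide rows held more aberrant spots, namely rows 80 to 179, 400 to 459 and 520 to 532 of 532. Inside these bands 0.655% of repeated spots departed from the median of their own probe by over 1.5-fold, and outside 0.0818%. The use of the bands was added after seeing the data. These shares therefore describe the bands and are no independent support for them. The single spots of Edn3, Ednrb and Ece1 and that of the Ednra probe with start 4535 lay inside a band.

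Most of these genes were at nearly the same level in both sexes. Of the 9 measured in both pools, 5 had the higher level in females and 4 in males, and the median difference was 0.017 against 0.00012 over the 20664 genes measured. The median size of the difference was 0.13 for the members and 0.092 for all measured genes. Only Edn3 was at least 1.5-fold apart, higher in the female pool, where 1.56% of measured genes were past that fold in that direction. In the other direction 0 members and 0.842% of measured genes were past it. These shares rest on 322 genes with more signal in females and 174 with more in males, a split that became 244 and 240 when the arrays were scaled on spike-in controls. The count of members higher in females was then 2 of 9, against 7 of 9 with the background correction normexp. Normexp added the same offset to both arrays, and the part of the offset in this count was not tested.

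**Figure D1:**
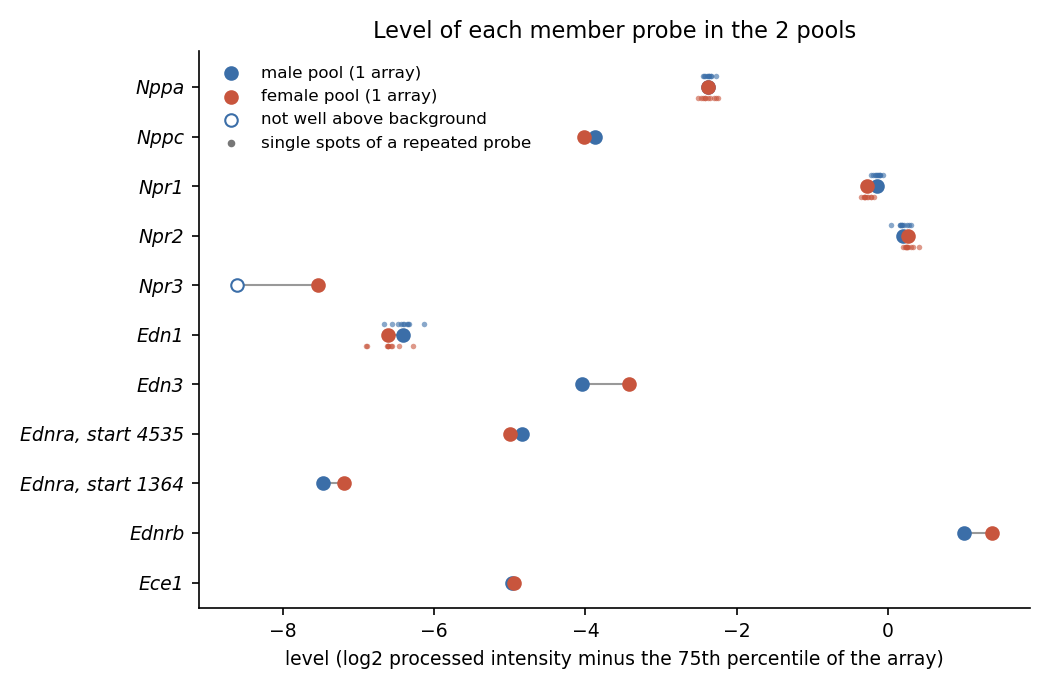
Level of each member probe on the male (blue) and female (red) array, on a log2 scale relative to the 75th percentile of the array, with single spots of probes spotted 10 times as small dots. Both pools lie close together for most probes, Edn3 and Ednrb are higher in the female pool, and the open symbol marks Npr3, which was not well above background in the male pool.

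Among the peptide genes, Nppa was alike in both pools. Its 10 spots ran from 694 over a median of 729 to 778 in the male pool and from 515 over 559 to 618 in the female pool. The levels were -2.37 and -2.38 and overlapped over the spots. The difference was -0.0092 ± 0.058 (SD, 10 spots), with 3 spots higher and 7 lower in the female pool, and its sign turned with the percentile taken over detected probes and with normexp. Nppc was measured on 1 spot outside the bands, at 257 (male) and 181 (female). Its levels were -3.87 and -4.02, a difference of -0.15 with a technical SD of 0.091. Over the alternatives whose fit held it ran from -0.23 to -0.046, so it was lower in the female pool throughout. A share of 12.2% of measured genes was at least as far in that direction.

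The guanylyl cyclase receptor genes were the best measured members, and their differences were small and of opposite sign. Npr1 ran from 3216 over a median of 3432 to 3587 in the male pool and from 2303 over 2408 to 2586 in the female pool. Its level was lower in the female pool at all 10 spots, by values between -0.20 and -0.071. Levels of different spots still overlapped slightly, from -0.23 to -0.071 in males and from -0.35 to -0.19 in females. The difference of -0.13 ± 0.039 (SD, 10 spots) amounts to 1.10-fold and was -0.14 ± 0.017 over the 5 spots outside the bands. It stayed below 0 under all 14 alternatives, from -0.21 with spike-in scaling to -0.12. At least as far in that direction lay 14.5% of measured genes, most of them on 1 spot, and 5.53% of the 959 genes measured on 1 repeated probe as Npr1 was. Differences of such genes had an SD of 0.14, against 0.23 over all measured genes.

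Npr2, the receptor gene for C-type natriuretic peptide, ran from 3892 over a median of 4288 to 4669 in the male pool and from 3368 over 3502 to 3901 in the female pool. Levels at the spots overlapped between the pools, from 0.046 to 0.31 in the male and from 0.19 to 0.41 in the female pool. The difference was 0.074 ± 0.050 (SD, 10 spots), higher in the female pool at 9 of 10 spots, and it was -0.0021 with spike-in scaling. Of the genes on 1 repeated probe, 23.3% lay at least as far in that direction. The probe of Npr1 is on chromosome 2 at 182724916 to 182724975, that of Npr2 on chromosome 5 at 60127743 to 60127802.

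The clearance receptor gene Npr3 was well above background in the female pool only. Its 1 spot, on slide row 397 and outside the bands, read 9.65 (male) and 15.9 (female). The measured levels were -8.61 and -7.53. The dimmest male probe that was well above background had a level of -7.97, and against it the female level of Npr3 was 1.36-fold higher. The flag is set spot by spot, so this is a rough bound and not a strict limit, with a technical SD of 0.21 log2. Its direction follows from the pool in which the flag was passed. Such a bound was common, since 325 genes were above background in the female pool only and 273 of them had a bound as large or larger. In the male pool only there were 519 such genes, 250 of them with a bound as large or larger. The spots around it were also slightly higher in the female pool, with a local median of 0.086. Its probe lies on chromosome 2 at 61278264 to 61278323.

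**Figure D2:**
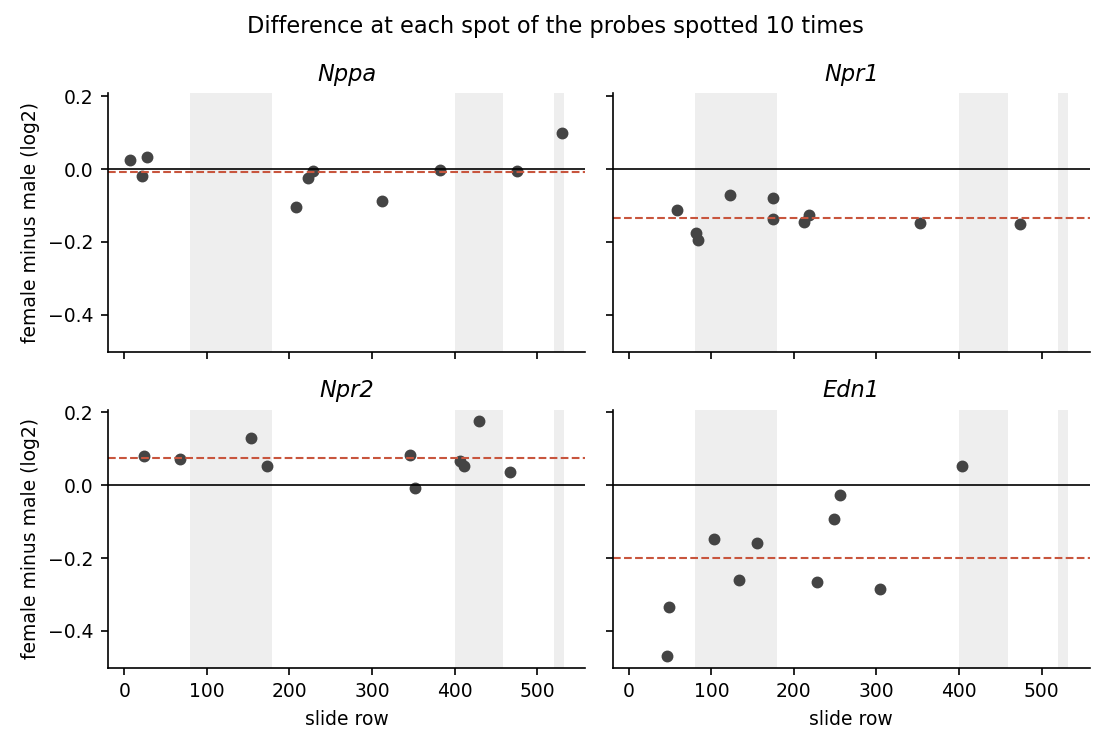
Difference (female minus male, log2) at each of the 10 spots of Nppa, Npr1, Npr2 and Edn1 against the slide row, with the mean as a dashed line and the bands shaded grey. All 10 spots of Npr1 lie below 0 whereas those of Nppa scatter around it, and the spots of Edn1 range from -0.47 to 0.052.

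Of the endothelin peptide genes, Edn3, which encodes endothelin 3, had the largest difference of the members measured in both pools. Its 1 spot read 229 (male) and 275 (female), although the female array was dimmer as a whole. The levels were -4.04 and -3.42, a difference of 0.62 with a technical SD of 0.091, or 1.54-fold. At least as far in that direction lay 1.35% of measured genes. The spot lay on row 435 in a band, where 2.94% of genes measured on 1 spot were past 1.5-fold in that direction, against 1.16% outside the bands. Within 10 rows and 10 columns of it, 69 repeated spots departed from the median of their own probe by a median of -0.0038 with an SD of 0.18. These departures ranged from -0.93 to 0.31. With the local median of all spots taken off, it was 0.65. It was under 1.5-fold with quantile normalization, at 0.57, with spike-in scaling, at 0.55, and with normexp, at 0.52.

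Edn1, which encodes endothelin 1, went the other way in the main scaling. Its 10 spots ran from 37.3 over a median of 44.4 to 53.7 in the male pool and from 24.8 over 30.2 to 37.9 in the female pool. Levels overlapped over the spots, from -6.66 to -6.13 in the male and from -6.89 to -6.28 in the female pool. The difference was -0.20 ± 0.15 (SD, 10 spots), lower in the female pool at 9 of 10 spots, and -0.25 ± 0.16 over the 6 spots outside the bands. At least as far in that direction lay 7.59% of all measured genes and 2.19% of those on 1 repeated probe. With normexp, a background correction that here added the same offset of 50 to every spot of both arrays before scaling, the difference was 0.13. The offset weighs most on dim spots, but dim probes did not all move the same way with normexp. The difference of Pde5a, for instance, went from 0.72 to 0.43. The sign for Edn1 thus depended on the processing, and how much of the change came from the offset was not tested. The Edn1 probe lies on chromosome 17 at 28304023 to 28304082. Edn3 and Edn1 therefore differed in opposite directions in the main scaling, but with normexp and its offset both were higher in females.

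Among the receptor genes, Ednrb read nearly the same in both pools before scaling, although the female array was dimmer as a whole. Its 1 spot read 7536 (male) and 7634 (female), with levels of 1.0 and 1.37. The difference was 0.38 with a technical SD of 0.053, or 1.30-fold, and 4.72% of measured genes were at least as far in that direction. The spot lay on row 124 in a band, and its surroundings were shifted the same way. Of the repeated spots near it, 119 in number, the median departure was 0.15 with an SD of 0.15, and the range was -0.35 to 0.75. With the local median of 0.15 taken off, the difference of Ednrb was 0.22, and over the alternatives whose fit held it ran from there to 0.39.

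The 2 probes of Ednra, the endothelin 1 receptor gene, disagreed in sign. The probe with start 4535 read 131 (male) and 92.2 (female), a difference of -0.15 with a technical SD of 0.21. The probe with start 1364, shown above beside that of Ednrb, read 21.4 and 20.1, a difference of 0.27 with the same technical SD. The first was smaller and the second larger than the technical SD, and their mean was 0.058. The spot of the probe with start 1364 lay on row 460, just past a band. Of the repeated spots near it, 126 in number, the median departure was 0.020 with an SD of 0.14, and the range was -0.69 to 0.91. The gene value was -0.018 with spike-in scaling and -0.15 with the brighter probe alone. The probe that resembles the Ednrb probe thus shared the sign of Ednrb, and the other did not. Whether Ednrb transcripts bind the Ednra probe was not tested. The probe with start 4535 lies on chromosome 19 at 32108094 to 32108153.

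Ece1, which encodes an endothelin-converting enzyme, showed no difference beyond the technical SD on its named probe, which was dim. Its 1 spot, on the last slide row, read 121 (male) and 95.5 (female), with levels of -4.96 and -4.95. The difference was 0.017 with a technical SD of 0.21, and its sign turned with median, quantile and spike-in scaling. A further probe, described in the files as an Ece1 transcript variant but named by an Ensembl transcript, was not a member by the rule. It read 14654 and 12598, a difference of 0.14 with a technical SD of 0.056, from 1 spot inside a band. With it counted as Ece1, the gene value was 0.078. The named probe is on chromosome 5 at 156735668 to 156735727, the further one on the same chromosome at 156737298 to 156737357.

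**Figure D3:**
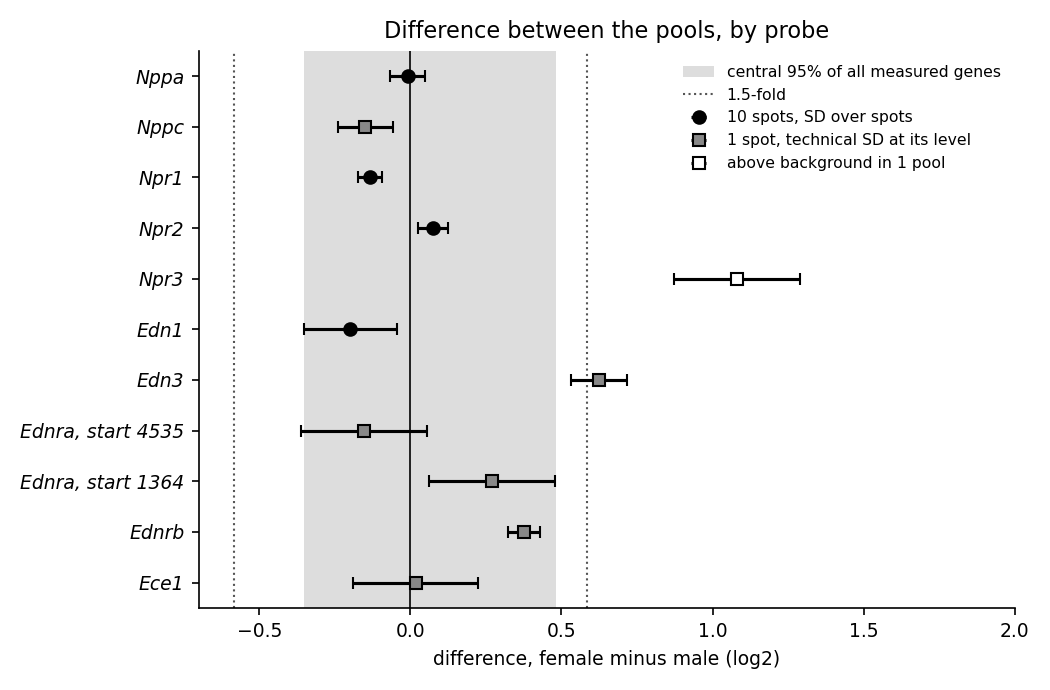
Difference of each member probe (female minus male, log2) with the SD over spots for probes spotted 10 times (circles) or the technical SD for probes on 1 spot (squares), over the central 95% of all measured genes in grey and 1.5-fold as dotted lines. Edn3 lies at 0.62, to the right of the 1.5-fold line, and the open square of Npr3 is a measured difference against a spot not well above background.

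The other genes of the natriuretic pathway, taken from a list of 15 names of which 13 were on the arrays, had a median difference of 0.073, or -0.0029 with spike-in scaling. Of the 10 measured, 7 had the higher level in females, 2 by 1.5-fold or more, and 3 in males, 0 by that much. Of all measured genes, 1.56% and 0.842% were past that fold in these directions. The 2 genes, Prkg1 and Pde5a, each rest on 1 dim spot, where the technical SD is highest. Prkg1, which encodes a cyclic GMP-dependent protein kinase, had levels of -7.40 (male) and -6.20 (female), a difference of 1.21 with a technical SD of 0.21 from 1 spot inside a band. Under the alternatives whose fit held and that measured it, its difference ran from 0.62 to 1.23. Pde5a, which encodes an enzyme that breaks down cyclic GMP, had levels of -6.50 and -5.79, a difference of 0.72 from 1 spot outside the bands, and 0.43 with normexp. Prkg2, another kinase gene of this kind, differed by 0.49 with a technical SD of 0.21, also from 1 dim spot outside the bands. Furin, which encodes a protease that cuts many precursors, differed by -0.49 from a spot inside a band. Nppb, which encodes B-type natriuretic peptide, was not well above background at any of its 10 spots on either array, and neither were Corin and Ostn.

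The other genes of the endothelin pathway lay close together. Of 12 listed names 11 were on the arrays and all 11 were measured. Their median difference was 0.082, or 0.0059 with spike-in scaling, with 9 genes at the higher level in females, 2 in males and 0 past 1.5-fold. The largest differences were those of Gna11, a G protein subunit gene, with 0.24, of Kel with -0.21, which turned to 0.23 with normexp, and of Plcb1, a phospholipase C gene, with 0.16. Itpr2, an inositol trisphosphate receptor gene, differed by 0.16, or -0.025 with the local median taken off. The converting enzyme gene Ece2 differed by 0.014. A probe described as the endothelin 2 precursor carried no gene symbol and passed the background flag on neither array.

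Marker lists of cells that could carry these genes moved unequally between the pools, and their part in the members' differences was not tested. The lists were chosen with earlier results of these data known, so their counts describe them and are no independent support. Meningeal fibroblast markers had the higher level in females in 12 of 12 cases, 10 by 1.5-fold or more, against 1.56% of all measured genes. Their summed levels were 1.57 and 2.5. The largest differences were in Aldh1a2, 1.92, and Slc47a1, 1.39, each on 1 dim spot inside a band and so lost without the bands. The count past 1.5-fold ran from 6 to 11 over the alternatives whose fit held. Of 7 choroid plexus markers 5 were higher, with summed levels of 0.74 and 1.46 and a median difference of 0.12. Kcnj13, 2.22, and Ttr, 0.98, were the 2 past 1.5-fold, each on 1 spot inside a band and so without a value once the bands were left out, while Folr1 and Clic6 were at -0.086 each and Kl at 0.15. Endothelial and mural markers, of which 9 of 15 were higher and 0 past 1.5-fold, had summed levels of 2.60 and 2.58. The largest differences among them were those of Cnn1, 0.53, and Abcc9, 0.50, which turned to -0.19 without the filter on background, followed by Notch3, -0.47. Those of astrocytes and tanycytes, 7 of 12 higher and 0 past 1.5-fold, stood at 4.42 in both pools, led by Col25a1, 0.54, and Rax, -0.31, which was 0.038 with normexp. General neuron markers, 5 of 5 measured higher, stood at 4.97 and 5.03, led by Map2, 0.088, and Snap25, 0.082. The smallest of their differences was 0.00061, and some turned sign with spike-in scaling. Markers of hypothalamic neurons were led by Crh, 0.41, and Agrp, -0.30. All 6 blood cell markers were lower, at 5.29 and 5.04, led by S100a8, -1.27, and Ahsp, -0.57. S100a8 alone was past 1.5-fold, and with normexp it was at -0.58, under that fold. Of 5 measured pituitary markers 4 were lower, at 1.54 and 0.81, led by Tshb, -2.05, and Cga, -0.72. These 2 were past 1.5-fold, against 0.842% of all measured genes in that direction. Gh1 passed the background flag on neither array, and Prl was above background in 1 pool only. Cnn1, Abcc9, Notch3, Rax, Agrp, S100a8 and Cga also rested on 1 spot each inside a band.

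**Figure D4:**
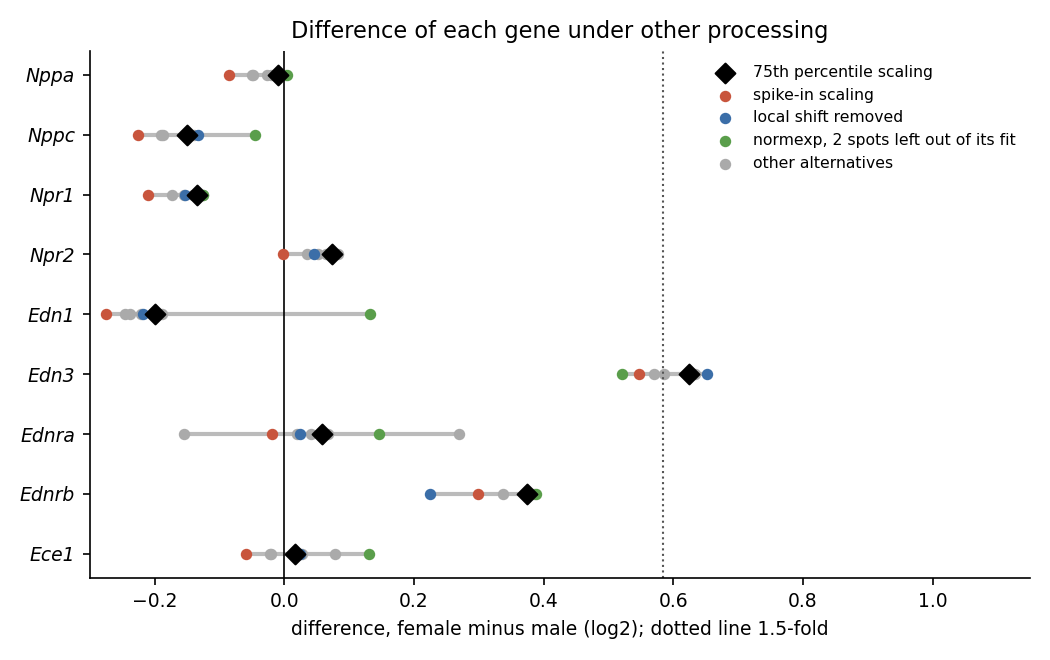
Difference of each gene (female minus male, log2) with the 75th percentile scaling (diamond) and under the other ways of processing whose fit held (dots), with 1.5-fold as a dotted line. Npr1, Nppc, Edn3 and Ednrb keep 1 sign throughout, while Edn1 crosses 0 with normexp and Npr2 reaches -0.0021 with spike-in scaling.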

How the data were processed

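Each deposited scanner file gave 1 array's spots. Per the file headers, the processed intensity is the spot signal after Agilent Feature Extraction 10.7.3.1, with spatial and multiplicative detrending and surrogate values for dim spots switched on. The submitters' processing notes name version 9.1. Flags for spots well above background, saturated and outlier spots are the software's, per the file headers, and other per-spot values were not used. The deposited value table held a signal equal to the processed intensity times a constant in each array, close to 100 over its 75th percentile, on a linear scale without centring, with medians of 29.0 (male) and 29.5 (female).

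From these, levels were computed as log2 of the intensity minus the 75th percentile over 42877 non-control spots, without spots flagged as outliers (286 and 292). Spots were averaged per probe, and probes per gene name, where in both pools over 50% of their spots passed the flag for signal well above background. The technical SD pooled 1312 probes with 5 or more spots, in 8 level groups. A call was a 1.5-fold difference. With 1 array per group no test was made, and the number of arrays limits the precision. Python 3.11.15, pandas 2.3.3 and, for normexp, limma 3.58.1 were used, and the calculation was tested on simulated data.

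Alternatives covered background correction (normexp, offset 50), scaling, the value table, flags, probe and spot summaries, the filter and gene names. Removal of the bands and of the local median within 5 rows and columns, and a normexp fit without 2 male spots whose background exceeded their signal by over 1000, were added after seeing the data. This last one is meant by normexp in the results, and the fit to all spots is described as not holding. The members and lists were chosen with earlier results of these data known. Named genes were all members, the 4 largest differences of each pathway list and the 2 largest of each marker list. Ece2, Nppb, Notch3, Folr1, Clic6, Kl, Corin, Ostn, Gh1, Prl and the Ensembl-named and endothelin 2 probes were named after their values were seen. Likeness of pattern to other genes was not computed, since 2 arrays give 1 difference.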

Additional observations from a re-analysis of the deposited data

Results flagged for a closer look

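A probe described in the files as an Ece1 transcript variant, but named by an Ensembl transcript, gave a clear signal and entered no comparison by gene name. It read 14654 (male) and 12598 (female), a difference of 0.14 log2 with a technical SD of 0.056, from 1 spot inside a band on slide row 520. A probe named Dear, described as a dual receptor of endothelin 1 and angiotensin II, also lay outside the gene lists. It read 43.7 and 27.6, a difference of -0.30 log2 with a technical SD of 0.21, while a second probe of the same name passed the background flag on neither array. No group held enough samples to look for an outlying one.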

How the results depend on the processing

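No paired analysis was possible because each sex had 1 array. The count of 1 member past 1.5-fold and of 496 genes past it, and the median difference of 0.017 log2, changed as follows. The normexp fit to all spots gave 6 members, 10132 genes and a median of -0.98, and turned Edn3 to -0.98. It moved the median of all genes to -0.55, and 2 spots with a background far above their signal entered it on the male array. Without these 2 spots normexp gave 0 members, 213 genes and a median of 0.13. Quantile normalization and spike-in scaling each gave 0 members, with 491 and 484 genes. Without the filter on background there were 2 members, Edn3 and Npr3, and 2079 genes. Without the bands 0 of 6 remaining members, 192 of 14878 genes and a median of -0.079 were found, with 150 genes higher in the female and 42 higher in the male pool, and the values of Edn3, Ednrb and Ece1 were lost with their only spots. At 2-fold there were 0 members and 175 genes. Of the main signs, those of Npr1, Nppc and Ednrb held in every alternative that gave a value, and that of Edn3 in all but the normexp fit to all spots. Edn3, Ednrb, Ece1, Nppc and Npr3 rest on 1 spot each, and Edn1, Ednra, Ece1 and Npr3 on dim spots, where the technical SD is highest.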
